A study of Mus musculus with 4 samples.

Results

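Oligodendrocyte precursors are the dividing glial cells from which myelinating oligodendrocytes arise, and they are recognised by surface and signaling genes that are silenced or reshaped as the cells mature. The 10 genes Pdgfra, Cspg4, Ptprz1, Lhfpl3, Matn4, Neu4, C1ql1, Cacng4, Pcdh15 and Kcnip3 were followed here in mouse spinal cord with and without full Chd7 deletion. They were chosen by name, with earlier results of these data known, and all 10 were found among the 21249 genes of the deposited tables. The product of Chd7 is an ATP-driven remodeler of nucleosomes, and the study asked how CHD7, together with the transcription factor Sox10, sets the timing of myelination. RNA came from whole spinal cords at postnatal day 8 on a mixed strain background, with 2 libraries per genotype. The cKO animals were Chd7f/f; Olig1-cre, so that both floxed Chd7 alleles were exposed to Cre from the Olig1 driver, which is active in cells of the oligodendrocyte lineage. The Ctrl animals were Chd7f/+; Olig1-cre and thus carried the same Cre and 1 floxed allele. Deletion was directed at the Olig1 lineage, whereas the RNA came from all cells of the cord. The labels call the libraries replicates and do not state whether each came from a separate animal, so the p-values measure the spread between these libraries.

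Precursors depend on platelet-derived growth factor, which signals through the receptor PDGFRA to keep them dividing. They also carry the proteoglycan NG2, the product of Cspg4, and the receptor phosphatase PTPRZ, and they receive synaptic input through AMPA receptors. As they differentiate, these features give way to the proteins of the myelin sheath.

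Levels are FPKM, the fragments counted on a transcript, scaled to transcript length and to the mapped fragments of the library, summed over a gene's transcripts of at least 300 bases. Differences are cKO minus Ctrl on the log2(FPKM + 1) scale, which understates the change of low genes. The words rose and fell are used where the adjusted p of limma, a linear model fitted across all 12913 genes with a mean FPKM of at least 1, was at most 0.05. Relative sequencing depth was 2.22 in cKO 1, 3.19 in cKO 2, 2.07 in Ctrl 1 and 1.0 in Ctrl 2. Libraries stood apart in several ways, within a group or between the genotypes. Xist, expressed from the inactive X chromosome, was at 19.6 and 0.233 FPKM in cKO 1 and cKO 2, against 55.6 and 51.8 FPKM in Ctrl 1 and Ctrl 2. The Y-linked Ddx3y was at 11.6 FPKM in cKO 2 and at most 0.195 FPKM in the other 3 libraries. The labels do not give the sex of the animals, and its part in the differences between genotypes was not tested. The summed level of 12 meningeal fibroblast markers was 42.8 and 48.8 FPKM in cKO cords, against 290.2 and 71.7 FPKM in Ctrl cords, with Ctrl 1 highest. Chd7 itself was at 2.52 and 3.38 FPKM in cKO libraries, against 3.52 and 3.12 FPKM in Ctrl libraries, a log2 difference of -0.13 ± 0.16 (SE, limma adjusted p = 0.657). The labels do not give which part of Chd7 is floxed, so this level checks the genotypes little.

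Of the 10 precursor genes, Kcnip3 and Cacng4 rose in cKO cords, Neu4 fell, and 7 did not pass the test. Kcnip3 was 2.0-fold higher, Cacng4 1.41-fold higher and Neu4 2.28-fold lower on the FPKM + 1 scale. Over all genes tested, 4.13% rose and 6.54% fell, or 10.7% in either direction. With members this few, 2 of 10 and 1 of 10 were not tested against these shares. The median log2 difference of the 10 genes was 0.10, beside -0.0028 over all genes tested. Against the Ctrl mean, the median of the 10 was -0.06 in cKO 1 and 0.24 in cKO 2. Their summed level was 234 and 260.2 FPKM in cKO libraries, against 208 and 236 FPKM in Ctrl libraries, so the groups overlapped. In bulk RNA, fewer cells of a type and less RNA per cell cannot be told apart. The calls of Kcnip3 and Neu4 held when any 1 library was left out. Cacng4 did not pass without cKO 1, cKO 2, Ctrl 1 or Ctrl 2 (limma adjusted p between 0.108 and 0.192), at a log2 difference of 0.46 to 0.53.

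**Figure D1:**
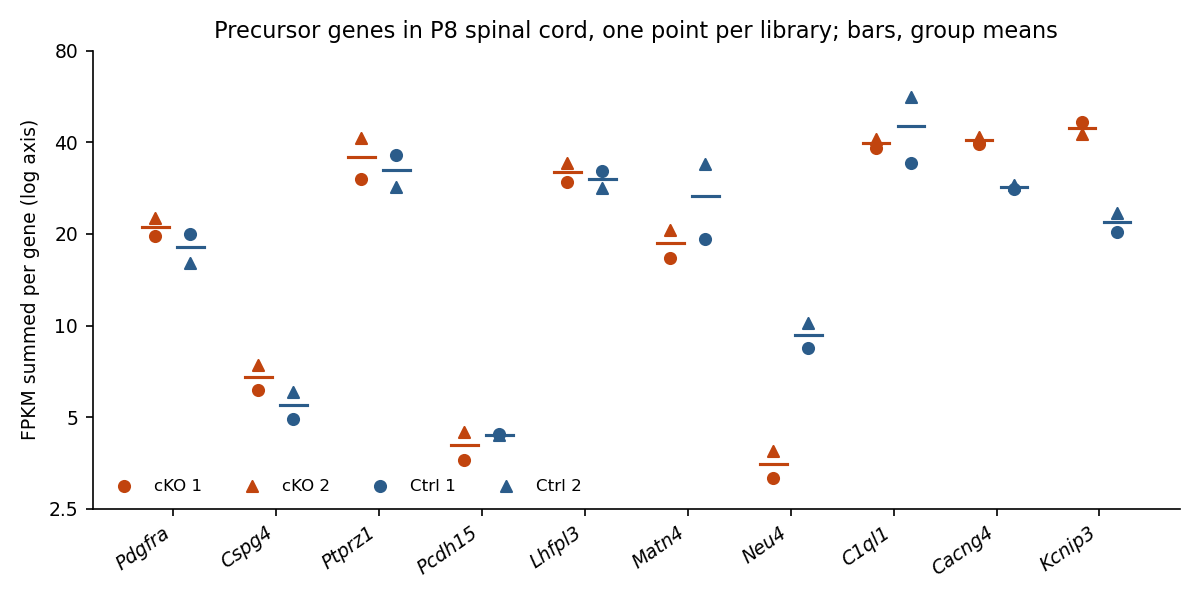
Level of each precursor gene in the 2 cKO libraries (left of each pair) and the 2 Ctrl libraries (right), as FPKM summed per gene on a log axis; each point is a library and each bar a group mean. Neu4 lies between 3.17 and 3.87 FPKM in cKO, below both Ctrl libraries, and Kcnip3 lies between 42.6 and 46.6 FPKM in cKO, above both Ctrl libraries.

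The receptors and proteoglycans that define precursors at the cell surface did not pass the test. Pdgfra, the receptor for platelet-derived growth factor (chromosome 5, 75548316 to 75594229 on mm9), was at 19.7 and 22.6 FPKM in cKO cords, against 20.1 and 16.05 FPKM in Ctrl cords. Ctrl 1 lay between the 2 cKO libraries, so the groups overlapped. The log2 difference was 0.22 ± 0.16 (SE), with a 95% confidence interval of -0.10 to 0.54 and a limma adjusted p of 0.425. On the fold scale this interval ran from 0.932 to 1.46, so that both a slightly lower level and one 1.46 times that of Ctrl fit within it.

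Meningeal fibroblasts also express Pdgfra. Their markers were highest in Ctrl 1, the Ctrl library with the higher Pdgfra level, and 8 of the 10 tested markers fell in cKO. Of the 10, 5 fell with median-of-ratios scaling, 2 with TPM scaling and 1 with quantile scaling. Their median log2 difference was -0.99, and without Ctrl 1 it was -0.45 over the 8 markers then tested. None of the 12 markers was at 0 in any library, and 2, Slc22a6 and Foxc2, stayed under 1 FPKM in all 4. Without Ctrl 1 the log2 difference of Pdgfra was 0.37 and without Ctrl 2 it was 0.07, and it did not pass in either case. The part of fibroblast RNA in the Pdgfra values was not tested.

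Cspg4, which encodes the NG2 proteoglycan (chromosome 9, 56712911 to 56747677), was at 6.15 and 7.40 FPKM in cKO cords, against 4.95 and 6.05 FPKM in Ctrl cords. Both cKO libraries lay above both Ctrl libraries, cKO 1 and Ctrl 2 by a narrow margin. Such separation upward was seen in 24.3% of all genes tested and separation downward in 29.3%. Among the 10 genes, 3 were separated upward (Cspg4, Cacng4, Kcnip3) and 1 downward (Neu4). The log2 difference of Cspg4 was 0.26 ± 0.15 (SE), with an interval of -0.05 to 0.57 (limma adjusted p = 0.313). Cspg4 was among the more thinly covered genes, at a mean depth of 4.34 to 16.9 reads per base. Pericytes express NG2 as well, and the summed level of 8 mural cell markers was 60.0 and 64.3 FPKM in cKO cords, against 70.4 and 52.8 FPKM in Ctrl cords. None of the 7 of these markers tested rose or fell, and their part in the Cspg4 values was not tested.

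Ptprz1, the receptor-type phosphatase that binds the growth factor pleiotrophin (chromosome 6, 22825502 to 23002916), was at 30.2 and 41.4 FPKM in cKO cords, against 36.4 and 28.5 FPKM in Ctrl cords. The library spread exceeded the difference between genotypes, which was 0.13 ± 0.17 on the log2 scale (SE, interval -0.22 to 0.48, limma adjusted p = 0.697). Its sign turned without cKO 2 and without Ctrl 2, to -0.09 and -0.04.

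The adhesion and membrane genes were also close in both genotypes. Pcdh15, a protocadherin best known from the tip links of inner ear hair cells (chromosome 10, 73284615 to 74112477), was at 3.60 and 4.48 FPKM in cKO cords, against 4.40 and 4.37 FPKM in Ctrl cords. Lhfpl3, a membrane protein of the tetraspan LHFPL family (chromosome 5, 22252011 to 22781415), was at 29.7 and 34.2 FPKM in cKO cords, against 32.3 and 28.4 FPKM in Ctrl cords. In both genes the groups overlapped. The log2 difference was -0.10 ± 0.15 for Pcdh15 (SE, interval -0.41 to 0.21, limma adjusted p = 0.746). For Lhfpl3 it was 0.07 ± 0.16 (SE, interval -0.26 to 0.40, limma adjusted p = 0.834), and it turned to -0.03 without cKO 2 and -0.02 without Ctrl 2. Pcdh15 turned to 0.03 without cKO 1.

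Matn4 encodes matrilin 4, a protein of the extracellular matrix (chromosome 2, 164215134 to 164230114). It was at 16.7 and 20.7 FPKM in cKO cords, against 19.3 and 34.1 FPKM in Ctrl cords. Ctrl 2 stood well above the other 3 libraries, which lay close together. The log2 difference was -0.44 ± 0.18 (SE, interval -0.81 to -0.08), with a spread mostly pooled over genes. It did not pass after adjustment (limma adjusted p = 0.115). Without Ctrl 1 it passed at -0.84 (limma adjusted p = 9.65e-04) and without cKO 2 at -0.59 (limma adjusted p = 0.0452). Without Ctrl 2 it was -0.05 (limma adjusted p = 0.917), so that 1 Ctrl library decided its size.

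C1ql1, a secreted C1q-like protein known as a synaptic organiser in the cerebellum (chromosome 11, 102800578 to 102807775), showed the same outlying library. It was at 38.3 and 41.1 FPKM in cKO cords, against 34.2 and 56.3 FPKM in Ctrl cords. Both cKO values lay between the Ctrl values. The log2 difference was -0.14 ± 0.18 (SE, interval -0.51 to 0.23, limma adjusted p = 0.691), and it was 0.21 without Ctrl 2 and -0.49 without Ctrl 1. Ctrl 2 was the library of lowest depth, and mean coverage of C1ql1 there was still 40.4 reads per base.

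Neu4, a sialidase that removes sialic acid from glycoproteins and glycolipids (chromosome 1, 95917070 to 95924907), was the gene of the 10 that fell. It was at 3.17 and 3.87 FPKM in cKO cords, against 8.42 and 10.2 FPKM in Ctrl cords. The means were 3.52 ± 0.501 FPKM in cKO and 9.29 ± 1.23 FPKM in Ctrl (SD, n = 2 each). Every cKO library was below every Ctrl library, with log2 differences of -1.42 to -0.95 over the 4 pairs of libraries. The log2 difference was -1.19 ± 0.15 (SE, interval -1.50 to -0.88, limma adjusted p = 7.64e-07). Without 1 library it ran from -1.31 to -1.06. Neu4 also met a rule of size, by which both cKO libraries lie beyond both Ctrl libraries by at least 1.5-fold, as did 1.69% of all genes downward. Its coverage was low, at 5.04 and 8.86 reads per base in cKO and 12.5 and 7.29 in Ctrl. Relative to Pdgfra, per length, Neu4 stood at 0.161 and 0.172 in cKO cords, against 0.420 and 0.633 in Ctrl cords.

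Markers of later stages of the lineage were lower in the same libraries. Of 10 markers of newly formed oligodendrocytes, 9 fell, with a median log2 difference of -0.85, and their summed level was 267 and 359 FPKM in cKO cords, against 589 and 609 FPKM in Ctrl cords. Gpr17, a receptor of cells that have begun to differentiate, was at 32.9 and 39.4 FPKM in cKO cords, against 107 and 114 FPKM in Ctrl cords. Of 12 markers of myelinating oligodendrocytes, 11 fell, with a median of -1.25. Without cKO 1, 4 of the newly formed and 8 of the myelinating markers fell. No marker of either list was at 0 or under 1 FPKM in all libraries. The part of cells at these stages in the Neu4 values was not tested.

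Cacng4 and Kcnip3 encode accessory proteins of ion channels and were the genes of the 10 that rose. Cacng4, one of the TARP proteins that carry AMPA receptors to the membrane (chromosome 11, 107596094 to 107655778), was at 39.5 and 41.8 FPKM in cKO cords, against 28.1 and 29.0 FPKM in Ctrl cords. The libraries of each genotype lay close together and the groups did not overlap. The log2 difference was 0.50 ± 0.16 (SE, interval 0.17 to 0.82), near the threshold at a limma adjusted p of 0.0398. With 1 library fewer it did not pass, as stated above. It did not pass with TPM scaling (limma adjusted p = 0.0711), quantile scaling (0.0807) or a replicate block (0.107) either. The call was also lost with no filter, with all rows of a gene summed and with the leading transcript alone.

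Kcnip3 encodes a calcium-binding protein, known as KChIP3, calsenilin or DREAM, that binds Kv4 potassium channels and can act as a transcriptional repressor (chromosome 2, 127282234 to 127347106). It was at 46.6 and 42.6 FPKM in cKO cords, against 20.3 and 23.4 FPKM in Ctrl cords. The means were 44.6 ± 2.82 FPKM in cKO and 21.9 ± 2.25 FPKM in Ctrl (SD, n = 2 each). Every cKO library was above every Ctrl library, with log2 differences of 0.84 to 1.16 over the 4 pairs of libraries. The log2 difference was 0.999 ± 0.16 (SE, interval 0.67 to 1.33, limma adjusted p = 3.14e-05). Without 1 library it ran from 0.90 to 1.10, and Kcnip3 met the rule of size, as did 0.48% of all genes upward. Coverage was 74.2 and 97.4 reads per base in cKO and 30.1 and 16.8 in Ctrl. Relative to Pdgfra, Kcnip3 stood at 2.37 and 1.89 in cKO cords, against 1.01 and 1.46 in Ctrl cords.

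Neurons express Cacng4 and Kcnip3 too. The summed level of 11 neuron markers was 1763 and 1459 FPKM in cKO cords, against 1247 and 1153 FPKM in Ctrl cords, and 10 of the 11 had a positive difference. Their median log2 difference was 0.26. Slc32a1, the vesicular transporter of inhibitory neurons, was the marker that rose, and it did not pass without cKO 1, Ctrl 1 or Ctrl 2 (limma adjusted p = 0.671, 0.0700 and 0.234). With TPM, median-of-ratios or quantile scaling it did not pass either (0.0724, 0.0525 and 0.0894), and with TPM or quantile scaling Tubb3 was the marker that rose. The median of the neuron markers was 0.17 without cKO 1, 0.36 without cKO 2, 0.56 without Ctrl 1 and 0.04 without Ctrl 2. Kcnip3 was at 0.94, 1.06, 0.90 and 1.10 without the same libraries. The part of neuronal RNA in the Cacng4 and Kcnip3 values was not tested.

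**Figure D2:**
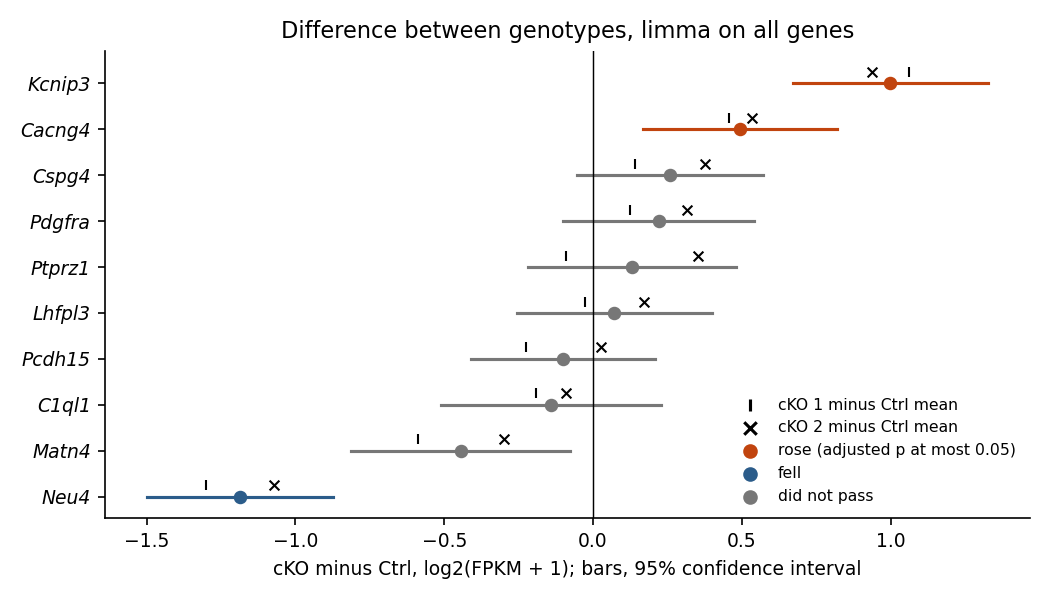
Difference between genotypes (cKO minus Ctrl, log2(FPKM + 1)) for each precursor gene, with the 95% confidence interval from limma; tick and cross marks give cKO 1 and cKO 2 minus the Ctrl mean. Kcnip3 (0.999) and Cacng4 (0.50) lie to the right of 0 and Neu4 (-1.19) to the left. The interval of Matn4 excludes 0 although its adjusted p did not pass and its groups overlapped. Intervals rest on a spread mostly pooled over genes.

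By level per length, Kcnip3 was the highest of the 10 genes in cKO cords and sixth in Ctrl cords. In cKO cords it was followed by Cacng4, C1ql1, Ptprz1 and Lhfpl3, and neighbours among these 4 overlapped between libraries. Pdgfra and Matn4 came next and overlapped each other, then Cspg4, and Pcdh15 and Neu4 were lowest and overlapped. In Ctrl cords C1ql1, Ptprz1, Lhfpl3, Cacng4, Matn4 and Kcnip3 formed a run in which each overlapped the next. Pdgfra, Neu4, Cspg4 and Pcdh15 followed in that order with no overlap between neighbours. Kcnip3 made up 19.95% and 16.4% of the summed level of the 10 genes in cKO libraries, against 9.72% and 9.92% in Ctrl libraries. For Neu4 the shares were 1.36% and 1.49% in cKO libraries, against 4.04% and 4.30% in Ctrl libraries.

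Several transcripts were deposited for 4 of the genes, and these share reads, so their split is an estimate. Kcnip3 came from NM_019789 for at least 99.02% of its level in every library, while NM_001111331 stayed at 0.199 to 0.231 FPKM. Pdgfra came mostly from NM_011058. The second Pdgfra transcript, NM_001083316, was at 1.47 and 1.88 FPKM in cKO cords, against 0.970 and 0.783 FPKM in Ctrl cords, which was 7.46% and 8.32% of the gene in cKO and 4.84% and 4.88% in Ctrl. The groups did not overlap, and this difference in shares was not tested. Among gene sums, 24.3% of those tested were separated upward and 29.3% downward. Lhfpl3 was divided between NM_029990, with 68.1% and 78.6% in cKO cords and 79.6% and 74.4% in Ctrl cords, and NM_001081231.

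For Pcdh15, 14 transcripts were listed, of which 5 reached a mean of 0.1 FPKM. The 2 leading ones are 9125 and 9110 bases long and traded places from library to library. NM_001142746 held 77.0% and 19.6% of the gene in cKO 1 and cKO 2, against 38.8% and 70.3% in Ctrl 1 and Ctrl 2. NM_001142760 held 4.85% and 62.1% in cKO 1 and cKO 2, against 39.1% and 6.81% in Ctrl 1 and Ctrl 2. The libraries of a genotype thus differed more in the split than the genotypes did, whereas the gene's sum stayed between 3.60 and 4.48 FPKM.

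**Figure D3:**
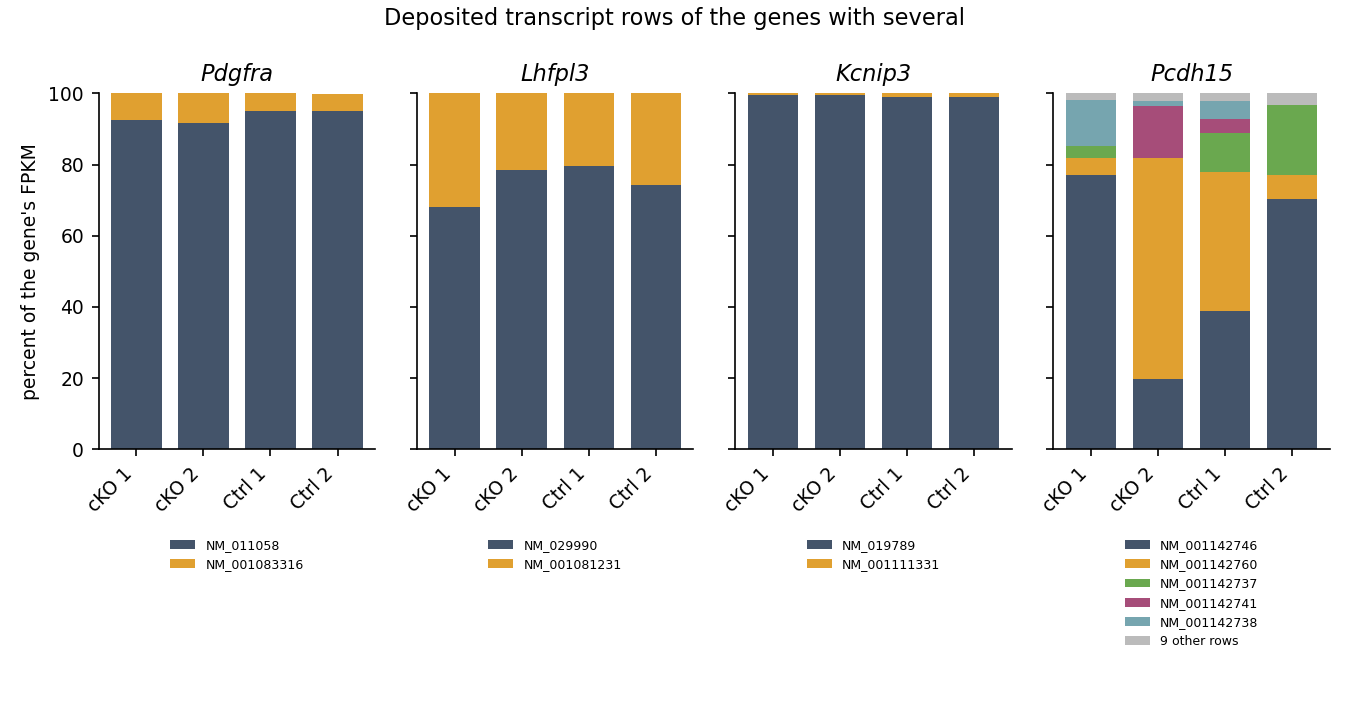
Share of each deposited transcript in the gene's FPKM (percent, bars stacked to 100) in cKO 1, cKO 2, Ctrl 1 and Ctrl 2 for the 4 genes with several. Kcnip3 comes almost wholly from 1 transcript, and the 2 leading Pcdh15 transcripts exchange shares between libraries of the same genotype.

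The start regions of Neu4 and Kcnip3 are shown because these genes moved most in either direction, and that of Pdgfra as the defining gene of the set that did not pass. Each window holds the 250 bases before and 50 from a start site, from RefSeq on GRCm38.p6, printed 5′ to 3′ on the strand of the gene. For Kcnip3, with 3 such windows, the one nearest the start of its main transcript is given. Capitals mark ACAAT or its reverse complement ATTGT, the core bound by SOX proteins, and CANNTG, the E-box bound by basic helix-loop-helix proteins such as OLIG2.
Neu4 (chr1:94020243-94020542, plus strand): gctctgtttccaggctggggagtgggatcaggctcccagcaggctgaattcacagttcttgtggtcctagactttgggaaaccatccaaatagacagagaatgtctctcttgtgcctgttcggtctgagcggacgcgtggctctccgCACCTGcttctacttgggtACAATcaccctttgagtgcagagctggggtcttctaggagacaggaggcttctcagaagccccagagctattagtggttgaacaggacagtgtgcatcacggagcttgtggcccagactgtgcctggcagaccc
Kcnip3 (chr2:127521343-127521642, minus strand): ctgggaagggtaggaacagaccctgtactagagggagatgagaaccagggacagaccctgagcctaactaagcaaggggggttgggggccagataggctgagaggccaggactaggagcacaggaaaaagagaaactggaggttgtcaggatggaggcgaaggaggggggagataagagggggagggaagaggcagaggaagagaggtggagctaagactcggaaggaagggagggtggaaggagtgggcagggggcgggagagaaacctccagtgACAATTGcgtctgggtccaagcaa
Pdgfra (chr5:75152001-75152300, plus strand): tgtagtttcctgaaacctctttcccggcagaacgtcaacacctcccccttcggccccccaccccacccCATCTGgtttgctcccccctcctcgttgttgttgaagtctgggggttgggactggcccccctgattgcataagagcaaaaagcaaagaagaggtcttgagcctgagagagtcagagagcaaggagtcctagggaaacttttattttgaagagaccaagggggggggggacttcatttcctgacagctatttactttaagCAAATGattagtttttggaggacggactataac

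The Neu4 window held 1 SOX core, beginning 84 bases before the start, and 1 E-box beginning 103 bases before it. In the Kcnip3 window 1 SOX core began 26 bases after the start and shared 4 bases with an E-box. The Pdgfra window held no SOX core and 2 E-boxes. Windows were found for 8 of the 10 genes, 11 in all, of which 4 held a SOX core and 8 an E-box. Of 32851 windows of this length in the RefSeq table, 31.0% held a SOX core and 72.3% an E-box on either strand. The matches describe letters only, and binding was not measured in these libraries.

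Genes that work with the 10 were read from lists by role. Around PDGFRA, 17 ligands, receptors and adaptors were measured, of which 2 fell and none rose. Their median log2 difference was -0.15. Shc1, an adaptor that links receptors to Ras, was at 3.54 and 3.76 FPKM in cKO cords, against 5.86 and 6.55 FPKM in Ctrl cords (log2 difference -0.63 ± 0.15, SE, limma adjusted p = 0.00394). Gab1, a docking protein, was at 12.04 and 17.6 FPKM in cKO cords, against 20.5 and 21.4 FPKM in Ctrl cords (limma adjusted p = 0.0453). Without cKO 1 neither passed (limma adjusted p = 0.0968 for Shc1 and 0.813 for Gab1), and without Ctrl 1 or Ctrl 2 Gab1 did not (0.0639 and 0.103). Gab1 did not pass with TPM, median-of-ratios or quantile scaling either (0.135, 0.119 and 0.145). The ligand Pdgfa, named here after its values were seen, was at 32.8 and 32.4 FPKM in cKO cords, against 28.5 and 33.0 FPKM in Ctrl cords.

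Among 7 tested partners and sheddases of NG2 none rose or fell by limma, with a median of -0.28. Grip1, the gene of lowest p in this list, had a log2 difference of 0.41 (limma adjusted p = 0.0741). It was the 1 gene of the 7 with a positive difference. Adam10 and Adam17, proteases that release membrane proteins, had log2 differences of -0.33 and -0.37 (limma adjusted p = 0.176 and 0.117). Of 11 ligands and partners of PTPRZ, Tnr alone fell. The list's median was 0.26, with no gene higher by the test. Tnr encodes tenascin R, a matrix protein of perineuronal nets and nodes, and was at 5.48 and 9.10 FPKM in cKO cords, against 15.2 and 11.3 FPKM in Ctrl cords (limma adjusted p = 0.00127). Without cKO 1 its log2 difference was -0.49 and did not pass (limma adjusted p = 0.253), nor did it with TPM or quantile scaling (0.0609 and 0.0618).

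Of 12 genes listed with PCDH15 and LHFPL proteins, 7 were tested and 5 were too low. Lhfpl5 and Myo7a rose. Myo7a, an unconventional myosin of sensory hair cells, was at 1.88 and 1.54 FPKM in cKO cords, against 0.382 and 0.441 FPKM in Ctrl cords (log2 difference 0.94 ± 0.16, SE, limma adjusted p = 7.62e-05). Lhfpl5, a partner of PCDH15 in hair cells, was at 12.1 and 9.37 FPKM in cKO cords, against 6.35 and 7.42 FPKM in Ctrl cords (limma adjusted p = 0.0129), and did not pass without cKO 1 or Ctrl 1 (0.450 and 0.0836). Lhfpl5 did not pass with TPM scaling either (0.0632). Myo7a was below the filter, and so not tested, without cKO 1 or cKO 2.

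In the matrilin list 3 of 6 genes were tested, and the fibroblast proteoglycan Dcn, also among the fibroblast markers, fell, at 2.79 and 2.76 FPKM in cKO cords, against 11.2 and 3.66 FPKM in Ctrl cords. Without Ctrl 1, the library rich in fibroblast markers, it did not pass (log2 difference -0.31, limma adjusted p = 0.327). With all 4 libraries it did not pass under TPM, median-of-ratios or quantile scaling (limma adjusted p = 0.1001, 0.0653 and 0.134). Matn2 was at 4.32 and 5.54 FPKM in cKO cords, against 4.65 and 3.62 FPKM in Ctrl cords.

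Among 10 tested genes of sialidases and polysialic acid, St8sia2 rose and none fell, with a median of 0.10. St8sia2, a polysialyltransferase that modifies the adhesion molecule NCAM, was at 2.09 and 2.34 FPKM in cKO cords, against 1.41 and 0.939 FPKM in Ctrl cords (log2 difference 0.57 ± 0.16, SE, limma adjusted p = 0.0147). It did not pass without cKO 1, cKO 2 or Ctrl 2 (limma adjusted p = 0.107, 0.1195 and 0.105) or with TPM scaling (0.0917). The sister sialidases Neu1 and Neu3, named after their values were seen, had log2 differences of 0.13 and -0.13 and did not pass (limma adjusted p = 0.651 and 0.676). Neu2 was too low to test.

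The secreted relatives of C1QL1 and the TARP relatives of CACNG4 held further genes that rose. Of 7 C1q-like genes and receptors, C1ql4, Cbln1 and Cbln4 rose and none fell, with a median of 0.35. Cbln1, a synaptic organiser, was at 34.4 and 29.9 FPKM in cKO cords, against 22.2 and 20.8 FPKM in Ctrl cords (limma adjusted p = 0.0176). C1ql4 was at 3.56 and 1.98 FPKM in cKO cords, against 1.38 and 0.971 FPKM in Ctrl cords. Without cKO 1 none of the 3 passed, without Ctrl 2 C1ql4 alone did, and with TPM scaling Cbln1 alone did. Of 9 TARPs and AMPA receptor subunits, Cacng2 and Cacng3 rose and none fell, with a median of 0.21. Cacng2, the TARP stargazin, was at 17.2 and 15.1 FPKM in cKO cords, against 12.1 and 9.57 FPKM in Ctrl cords (limma adjusted p = 0.0185). Without cKO 1 or Ctrl 2, and with TPM or quantile scaling, neither Cacng2 nor Cacng3 passed, and Cacng3 did not without Ctrl 1.

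Of 12 KChIPs, Kv4 channels and partners of DREAM, Kcnip1 rose and none fell, with a median of 0.20. Kcnip1, another calcium-binding KChIP, was at 58.3 and 49.4 FPKM in cKO cords, against 33.9 and 31.2 FPKM in Ctrl cords (log2 difference 0.71 ± 0.17, SE, limma adjusted p = 0.00360). It did not pass without cKO 1 (limma adjusted p = 0.128). Kcnd2 and Kcnd3, the Kv4 channel genes of lowest p, had log2 differences of 0.43 and 0.35 and did not pass (limma adjusted p = 0.0771 and 0.139). The neuron markers described above were higher in the same libraries, and their part in these lists was not tested.

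**Figure D4:**
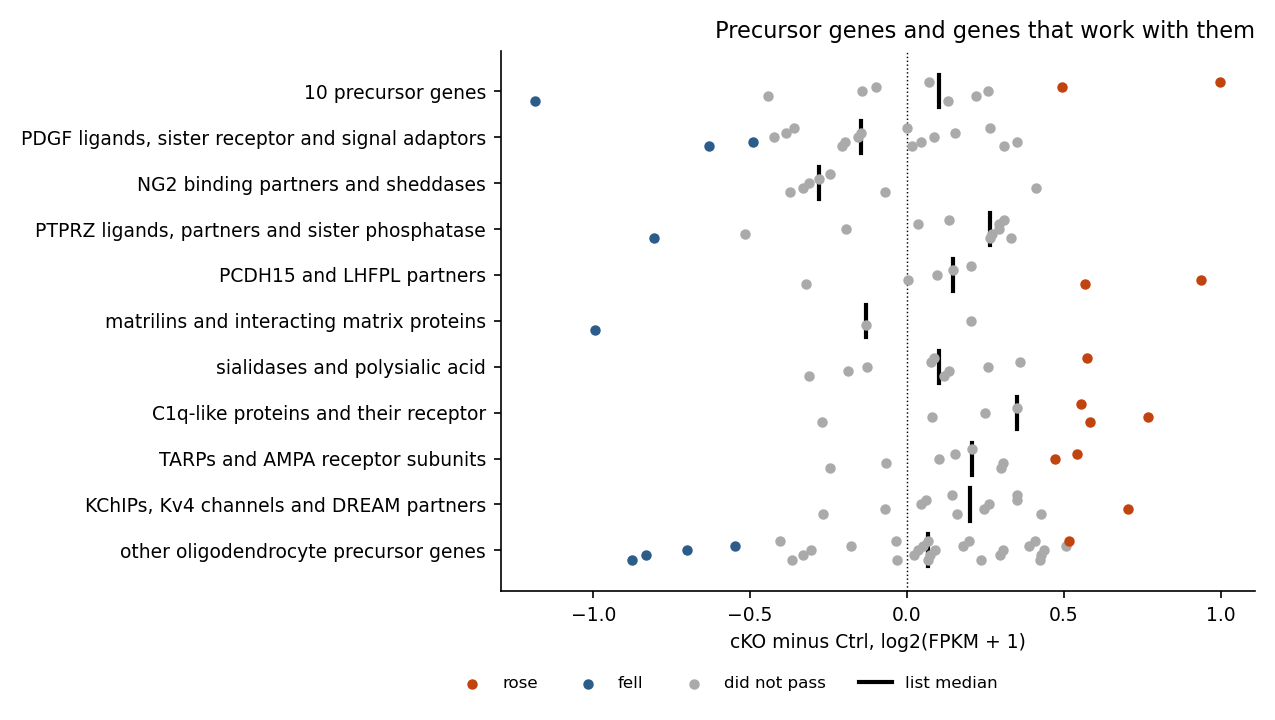
Difference between genotypes (cKO minus Ctrl, log2(FPKM + 1)) for every tested gene of the precursor set and of the lists of genes that work with it; colour gives the limma call and black bars the list medians. Medians run from -0.28 for NG2 partners to 0.35 for C1q-like proteins, and in each list more genes did not pass than did.

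Of 30 further genes of precursors tested, 4 fell and 1 rose, with a median of 0.07, beside 6.54% and 4.13% of all genes. Vcan, the matrix proteoglycan versican, was at 6.37 and 10.8 FPKM in cKO cords, against 15.6 and 15.5 FPKM in Ctrl cords (log2 difference -0.83 ± 0.17, SE, limma adjusted p = 7.29e-04). Without cKO 1 it did not pass (limma adjusted p = 0.244). The lineage transcription factors Olig1 and Olig2 fell as well. Olig1 was at 148 and 139 FPKM in cKO cords, against 224 and 312 FPKM in Ctrl cords (limma adjusted p = 0.00457). Olig2 was at 36.1 and 42.8 FPKM in cKO cords, against 55.5 and 74.9 FPKM in Ctrl cords (limma adjusted p = 0.00635). Neither passed without Ctrl 2 (limma adjusted p = 0.204 and 0.156), and Olig2 did not without cKO 1 (0.147). The other calls were Sema5a, which fell, and the gene now named Plppr1 and listed as E130309F12Rik, which rose (limma adjusted p = 0.0224 and 0.02004), both named to complete the count. The call of Plppr1 was lost with TPM scaling and without cKO 1, cKO 2 or Ctrl 2. That of Sema5a was lost with TPM, median-of-ratios and quantile scaling and without cKO 1 or Ctrl 1. Without cKO 1, Olig1 was the 1 gene of the list that fell, and none rose.

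Precursors divide, and markers of proliferation were read beside them. Of 10 tested, Mcm6 and Rrm2 rose and none fell, with a median of 0.12. Of the 10, 7 had a positive difference. Both cKO libraries lay above both Ctrl libraries in 5 of them and below in 3, beside 24.3% and 29.3% of all genes tested. The 3 were Mki67, Pcna and Ccnd1, at log2 differences of -0.17, -0.10 and -0.17. The summed level of the 10 was 89.2 and 86.2 FPKM in cKO cords, against 84.2 and 81.8 FPKM in Ctrl cords. Mcm6, part of the helicase of DNA replication, was at 9.33 and 7.75 FPKM in cKO cords, against 4.08 and 3.92 FPKM in Ctrl cords (log2 difference 0.93 ± 0.15, SE, limma adjusted p = 3.79e-05). Its call held without each library, whereas Rrm2 did not pass without cKO 1 or cKO 2 (limma adjusted p = 0.150 and 0.0655) or with TPM scaling (0.0677).

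Markers of the remaining cell types did not move as 1 block. Among 11 astrocyte markers Slc1a3 rose and none fell, with a median of 0.02. The call of Slc1a3 was lost with quantile scaling (limma adjusted p = 0.0563) and without cKO 1, cKO 2 or Ctrl 2. Gfap and Aqp4 had log2 differences of -0.74 and -0.51 and did not pass (limma adjusted p = 0.0965 and 0.132). Against the Ctrl mean they were at -1.26 and -0.83 in cKO 1, and at -0.22 and -0.19 in cKO 2. Both cKO libraries lay below both Ctrl libraries in 3 of the 11 markers and above in 5, beside 29.3% and 24.3% of all genes tested. The summed level of the 11 was 1705 and 2116 FPKM in cKO cords, against 2012 and 2254 FPKM in Ctrl cords. Of 10 microglia markers 2 rose and 3 fell, with sums of 98.6 and 95.2 FPKM in cKO cords, against 92.2 and 99.1 FPKM in Ctrl cords. None of 8 endothelial markers rose or fell by limma, at sums of 100.03 and 73.7 FPKM in cKO cords, against 93.7 and 100.5 FPKM in Ctrl cords. Of 7 tested Schwann cell markers 3 rose and 3 fell. The sum of all 10 listed was 68.0 and 63.5 FPKM in cKO cords, against 153 and 60.0 FPKM in Ctrl cords. Of 6 ependymal markers 2 rose and 1 fell, at sums of 21.97 and 17.97 FPKM in cKO cords, against 17.8 and 19.5 FPKM in Ctrl cords. Over all genes tested, 4.13% rose and 6.54% fell. With quantile scaling, 1 marker rose and 1 fell in the microglia, the Schwann cell and the ependymal list alike.

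**Figure D5:**
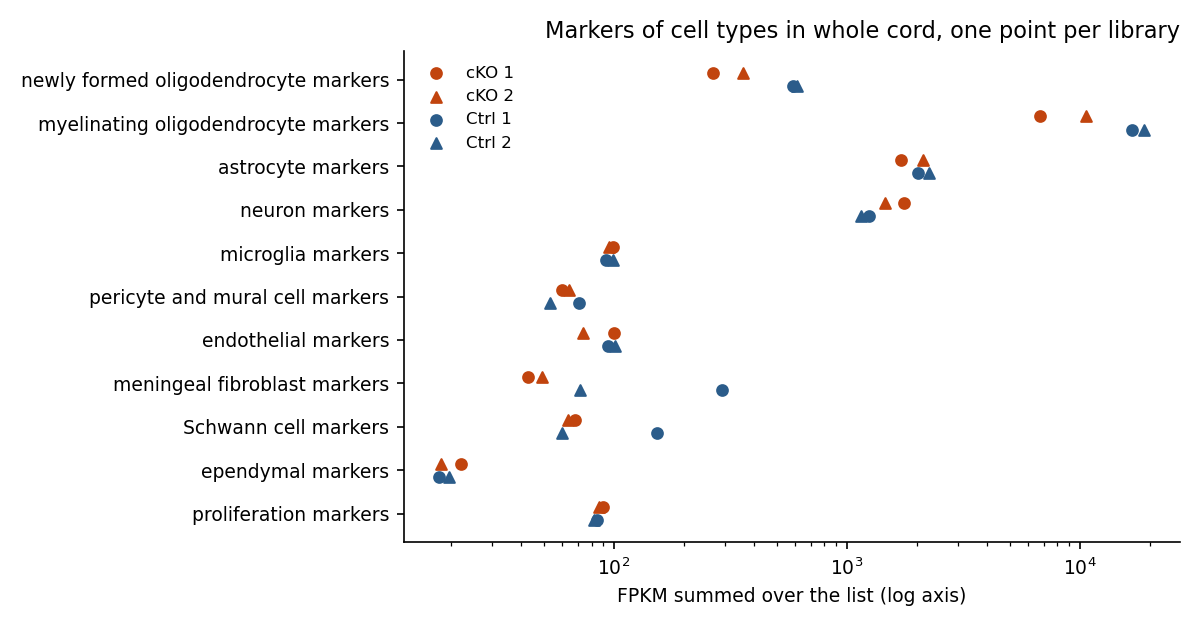
FPKM summed over each list of cell type markers in every library, on a log axis; cKO points lie above Ctrl points within a list. Both oligodendrocyte lists are lower in the 2 cKO libraries, neuron markers are higher there, and Ctrl 1 stands apart in meningeal fibroblast and Schwann cell markers.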

How the data were processed

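Transcript tables of 4 libraries, 2 cKO and 2 Ctrl, were used, grouped by sample title. Per the labels' protocols, Trizol was used to extract total RNA from frozen cords, and the library kit was Illumina TruSeq RNA. The authors deposited FPKM for 28107 RefSeq transcripts in Cufflinks layout, together with coverage (a depth signal averaged along each transcript), per the file headers. The submitters' processing notes list CASAVA, TopHat, Cufflinks and Cuffdiff without versions, and mm9 as the build. Coordinates are those of the files, counted from 1.

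The 315 rows that were not marked OK throughout and transcripts under 300 bases were left out, and FPKM was summed per symbol. Genes with a mean FPKM of at least 1 were tested as log2(FPKM + 1) with limma 3.58.1 in R 4.3.3, with genotype as the term, a mean-variance trend, and Benjamini-Hochberg adjustment over all 12913 genes at a threshold of 0.05. The spread had 36.3 prior and 2 residual degrees of freedom, so it is mostly pooled over genes. With 2 libraries against 2, an exact permutation test of a single gene cannot go below 0.333, so none was used. Depth is the ratio of coverage to FPKM, and the number of reads is unknown. The fit was tested on simulated data with independent noise that followed the mean-variance trend, which does not cover an outlying library.

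The 10 genes and the lists were chosen with earlier results of these data known. Named beside them were Chd7 and, by smallest p, up to 3 genes per role list and 2 per marker list, of which not all are printed, and of 241 list entries 7 were matched through their accession. Pseudocount, filter, scaling, moderation, transcript summing, a replicate block and each library left out were varied.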

Additional observations from a re-analysis of the deposited data

How the results depend on the processing

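Of 10 genes, 2 rose and 1 fell. None rose when all rows of a gene were summed, where 3 of the 10 had an unadjusted p under 0.05 in limma, and 1 rose with TPM scaling, quantile scaling, a replicate block or the leading transcript alone. With no filter none rose and 0 fell in limma, although 3 had an unadjusted p under 0.05. With a filter at 3 FPKM or robust moderation 2 fell, Matn4 being the second. With each library left out in turn 1 rose and 1 to 2 fell. Kcnip3 was at 0.89 to 1.10 over all alternatives, and lost its call with no filter and with all rows summed (limma adjusted p = 0.268 and 0.0617). Neu4 was at -1.38 to -0.74 and lost it with no filter (0.268). Cacng4 was at 0.44 to 0.53 and lost its call in 10 of the 16 alternatives. Log2 differences changed sign only among genes that had not passed and when a library was left out: C1ql1 ran from -0.49 to 0.21, Lhfpl3 from -0.028 to 0.17, Pcdh15 from -0.23 to 0.027 and Ptprz1 from -0.090 to 0.35. Over the 10 genes and 16 alternatives, 137 differences kept side and direction, 13 lost a call, 4 gained one and 6 changed sign.

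Of all genes, 533 rose and 845 fell. These were 204 and 460 with TPM scaling, 418 and 552 with median-of-ratios scaling, 303 and 414 with quantile scaling, 351 and 645 with a replicate block, 179 and 408 for the leading transcript, 23 and 30 with all rows summed, and 1 and 0 with no filter, where 3120 genes had an unadjusted p under 0.05 in limma. Leaving out a library gave 107 to 555 higher and 277 to 900 lower. The cause of these differences was not tested. The titles give both genotypes the numbers 1 and 2, without saying that a number marks a shared litter or day, and deviations of same-numbered libraries correlated at -0.241, so the block pairs libraries that share only a number. Of 32 named list genes that passed, 8 kept the call in all 7 alternatives added after the data were seen (3 scalings and each library left out). A further 3 (Ccdc153, Cdh19 and Myo7a) kept it where they were tested but were too low in 1 or 2 of them, and 0 changed sign. Mean coverage was lowest for Pcdh15, Cspg4 and Neu4, and the number of libraries limits the precision of all 10 genes.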
